A study of Homo sapiens with 9 samples.

Results

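Glycolysis breaks glucose down to pyruvate in the cytosol, and the hypoxia-inducible factors HIF-1α and HIF-2α raise the transcription of most of its genes when oxygen is short. In the presence of oxygen the prolyl hydroxylases of the EGLN family modify the α subunits, which are then bound by the von Hippel-Lindau protein and degraded. Stabilized α subunits pair with ARNT and bind hypoxia response elements, whose core reads ACGTG or GCGTG, and transformed cell lines such as HEK293 also run glycolysis at a high rate in the presence of oxygen. The transcripts described here are 34 listed genes of glycolysis and of the hypoxia response, matched by gene symbol to the Ensembl identifiers of a table of 54562 genes. Of the 34, 33 had a mean of at least 1 FPKM (fragments scaled by transcript length and library size) and were tested with 13801 genes in all, while CA9 was below that level.

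The 9 libraries came from HEK293 cells, a human embryonic kidney line grown with 10% fetal bovine serum, that were transiently transfected with a pCMV6 plasmid. The plasmid was empty (EV) or carried a cDNA of the RNA editing enzyme ADARB1, either the isoform that skips an Alu exon (Short) or the isoform that includes it (Long), and RNA was taken 48 hours later for stranded libraries of polyadenylated RNA. Each group had 3 libraries, and the transfections were repeated in different passages of the cells, so that replicate 1, 2 and 3 each stand for 1 passage with 1 library of each group. The labels give no cell density, time since feeding or oxygen level, so that these and the passage cannot be told apart, and the 3 libraries of a passage share their cells.

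ADARB1 was at 7.66 to 8.61 FPKM in the EV libraries, at 1889 to 4145 FPKM in the Short libraries and at 1695 to 3449 FPKM in the Long libraries. VIM, KRT8, KRT18 and NEFM, which HEK293 cells express, averaged 60.8 to 191 FPKM. Of markers of other cells, UMOD of the kidney tubule was listed at 0 in all libraries, PTPRC, CD3E, CDH5, VWF and DCN averaged under 0.1 FPKM, and AQP1, LUM, CD68, LRP2 and COL1A1 averaged 0.477, 0.748, 2.45, 7.12 and 11.2 FPKM. Of these markers NEFM was higher by 0.45 on the log2 scale in replicate 3 than in replicate 1 (adjusted p = 0.000585), while COL1A1, KRT8, KRT18 and VIM were at -0.31, -0.21, -0.19 and -0.17 (adjusted p = 0.0117, 0.0128, 0.0164 and 0.0105). KRT8 was also higher in Long than in EV, by 0.20 (adjusted p = 0.0499), and their part in the results was not tested. The table gives no counts, so no counting intervals were made. Relative to EV replicate 1, the steps between the lowest FPKM values gave a sequencing depth of 0.993 to 1.21, and the 3 libraries of replicate 3 were the deepest, with 1.11 to 1.21. In bulk RNA, fewer cells that use a pathway and less of its RNA per cell cannot be told apart.

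RefSeq promoters of GRCh38.p14, from 250 bases before to 50 bases after a transcript start, were at hand for 30 of the 34 genes, in 53 windows. SLC2A3, BNIP3L, VEGFA and NDRG1 were not in that table. ACGTG was found on either strand in 21 of the 53 windows (39.6%), in 25.3% of the windows of genes tested and in 21.4% of the 35116 windows of the table. With GCGTG allowed as well, the shares were 66%, 61.3% and 48.4%. By gene, ACGTG was in a window of 17 of the 30 genes and of 3321 of the 10216 genes tested that were in the table, and either core in a window of 27 of the 30 and of 7300 of the 10216. The palindrome CACGTG, an E-box that overlaps ACGTG, was in 13.2% of the windows of the 30 genes, 9.3% of those of genes tested and 7.26% of all. ACGTGC, the longer form, was in 20.8%, 8.41% and 6.89%. The sequences shown here are all ACGTG matches of the 5 genes in the table that passed the test as lower in Long than in EV, and that of CA9, the gene at the bottom of the range of expression. Each is written 5′ to 3′ on the strand of its gene with 9 bases of context on each side, with ACGTG, its reverse complement or CACGTG in capitals. Such a match is a description of the sequence and not a mapped binding site.
ANKRD37, 162 bases before the start (chr4:185396670-185396693, plus strand): gccgggctcCACGTGccagtgttt
ANKRD37, 143 bases before the start (chr4:185396689-185396711, plus strand): tgtttgtgtACGTGcggccgtgg
LDHA, 185 bases before the start (chr11:18394369-18394392, plus strand): ctcccagcgCACGTGgagcagtct
LDHA, 87 bases before the start (chr11:18394467-18394490, plus strand): cccgactcaCACGTGggttcccgc
LDHA, 73 bases before the start (chr11:18394481-18394503, plus strand): gggttcccgCACGTccgccggcc
PGK1, 202 bases before the start (chrX:78104037-78104059, plus strand): gcgtgccggACGTGacaaacgga
PGK1, 183 bases before the start (chrX:78104056-78104078, plus strand): cggaagccgCACGTctcactagt
PGK1, 29 bases after the start (chrX:78104267-78104289, plus strand): tccggagcgCACGTcggcagtcg
BNIP3, 134 bases before the start (chr10:131982043-131982066, minus strand): cacgcgccgCACGTGccacacgca
P4HA1, 86 bases before the start (chr10:73096939-73096961, minus strand): gatcgagctCACGTagcgagggc
CA9, 18 bases before the start (chr9:35673901-35673923, plus strand): tttccaatgCACGTacagcccgt

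Most of these genes were well expressed. LDHA, which turns pyruvate into lactate, was the highest with a mean of 1332 FPKM over the 9 libraries, followed by the enolase ENO1 at 1229 FPKM, the phosphoglycerate kinase PGK1 at 832 FPKM, the triosephosphate isomerase TPI1 at 724 FPKM and the lactate dehydrogenase LDHB at 714 FPKM. At the low end stood the bifunctional enzyme PFKFB4 at 7.29 FPKM, the aldolase ALDOC at 8.52 FPKM, ANKRD37 at 8.62 FPKM and the peptide hormone ADM at 14.2 FPKM. CA9, a carbonic anhydrase that is among the most specific HIF-1 targets, was listed at 0 in all EV and all Long libraries and at 0.0329, 0.0305 and 0.0270 FPKM in the Short libraries, and was not tested. The exact 0 of a table without counts gives no limit on its level.

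These transcripts differed more between passages than between plasmids. In a fit with group and passage, passage took a median of 81.0% of the variance of the 33 genes and group 8.48%, against 49.8% and 19.9% over all genes tested. Passage took more than group in 31 of the 33 (93.9%), and in 70.3% of all genes. The exceptions were BNIP3L, with 16.7% for passage and 71.3% for group, and EPAS1, with 31.5% and 53.2%. The plot of each gene by library shows a warm block for replicate 1 and a cool block for replicate 3, with HIF1A the other way round.

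**Figure D1:**
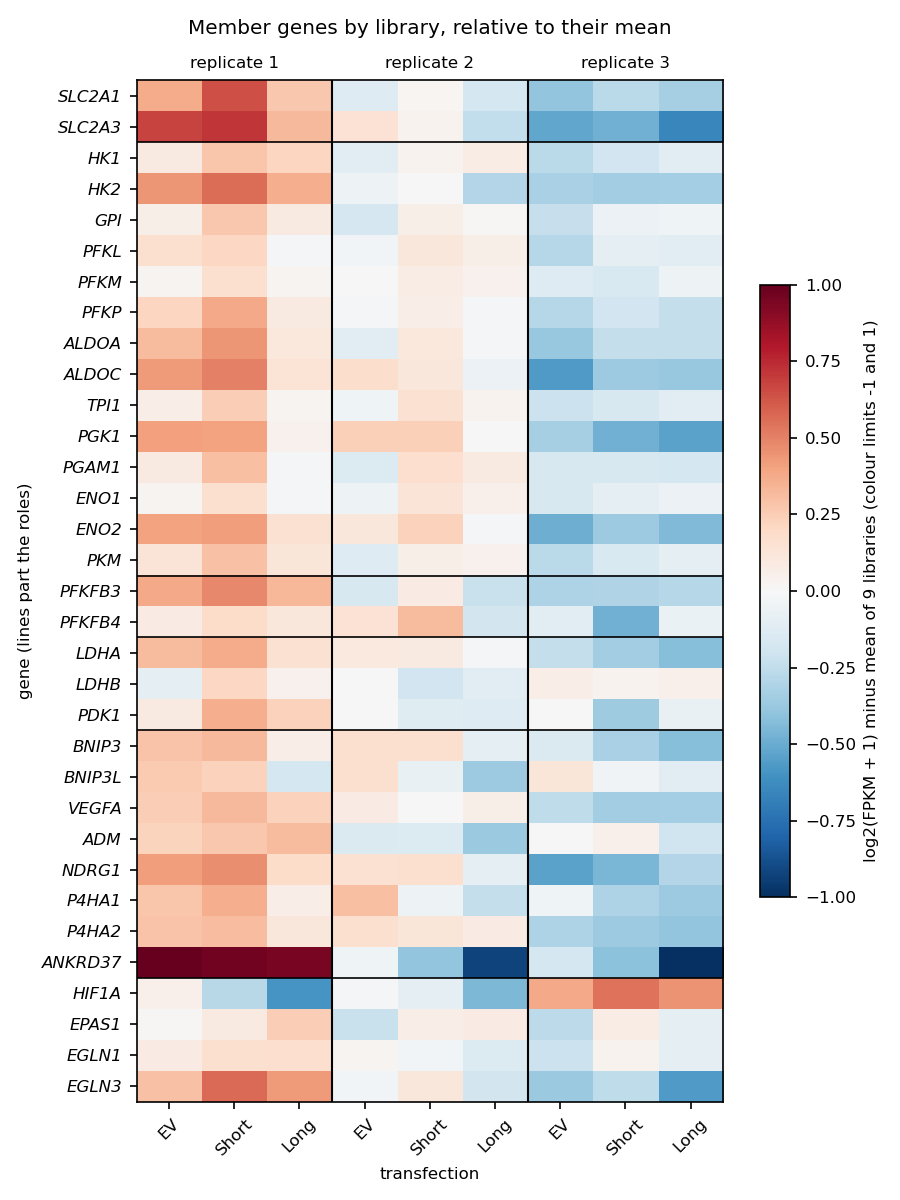
Level of the 33 tested genes (rows, ordered by role) in the 9 libraries (columns, by replicate number and then EV, Short and Long) as log2(FPKM + 1) minus the mean of the 9 libraries, with colours that stop at -1 and 1. Most rows are highest in replicate 1 and lowest in replicate 3, LDHB and BNIP3L have no such order, and HIF1A is highest in replicate 3.

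Between passages, the tests were contrasts of 3 against 3 libraries in the same limma fit of log2(FPKM + 1), with p-values adjusted over all 13801 genes and a threshold of 0.05. In replicate 3 against replicate 1, 29 of the 33 genes were lower and 1, HIF1A, was higher, where 21.6% of all genes were lower and 14.8% higher. The median log2 fold change of the 33 was -0.47, and that of all genes -0.05. All 3 libraries of replicate 3 lay below all 3 of replicate 1 for 29 of the 33 genes, and for 28.5% of all genes. For replicate 2 below replicate 1 this held for 16 of the 33 and 9.75% of all genes, and for replicate 3 below replicate 2 for 20 of the 33 and 21.9%. In replicate 2 against replicate 1, 7 genes were lower and none higher (0.203% and 0.0725% of all genes, with 23 of the 33 and 2004 of the 13801 at an unadjusted p under 0.05), with a median of -0.19 against -0.03, and in replicate 3 against replicate 2, 19 were lower and 1 higher (15% and 17.2% of all genes), with a median of -0.21 against -0.03. Any pair of these comparisons shares the 3 libraries of a passage, and since every replicate number stands for a single passage, the tests compare these 3 passages and not early with late passages in general. Rescaling the libraries changed the split of all genes between replicate 3 and replicate 1, from 2047 higher and 2979 lower to 3024 higher and 1807 lower with the same FPKM sum in each library, and that of the 33 to 1 higher and 24 lower.

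**Figure D2:**
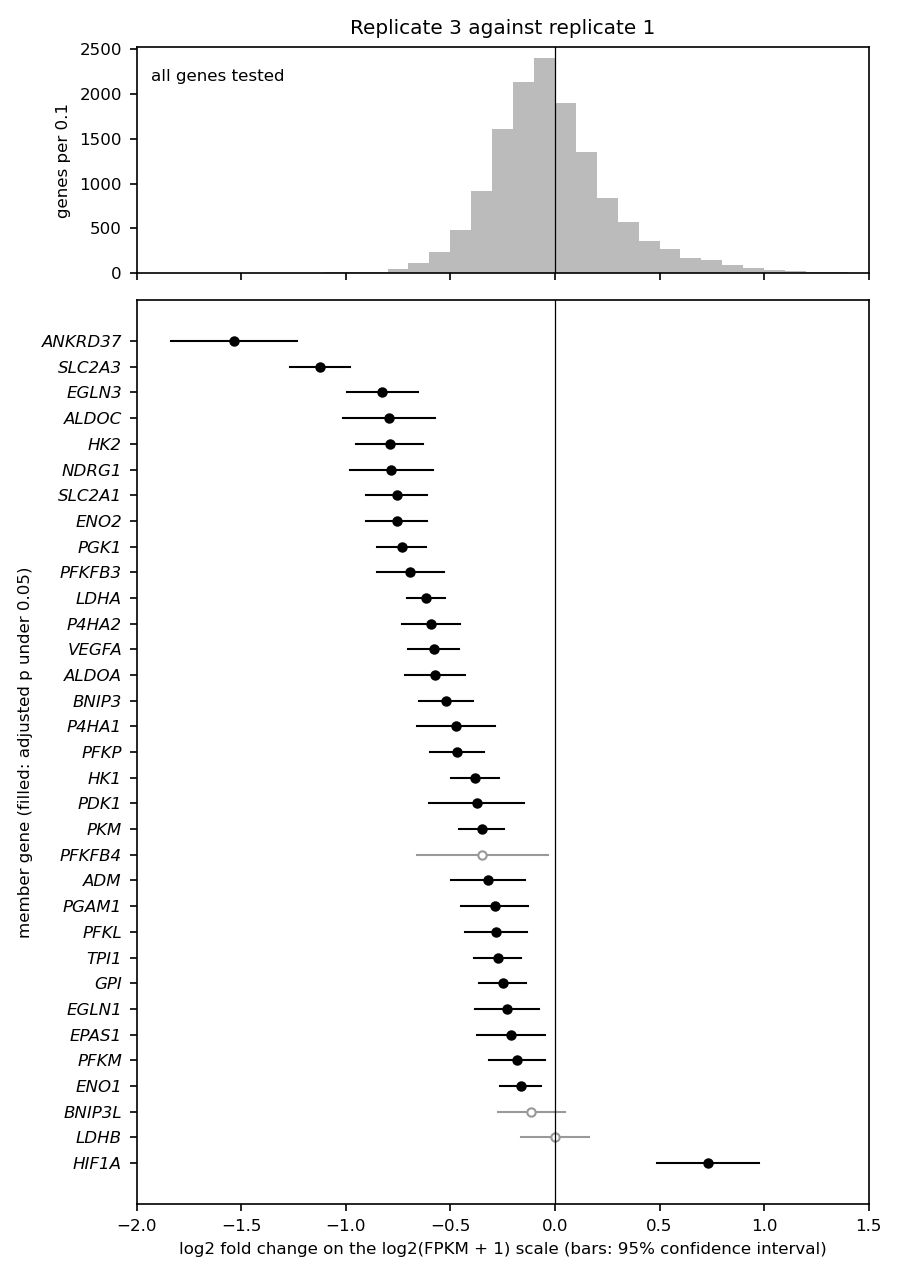
Lower panel: log2 fold change of each of the 33 genes in replicate 3 against replicate 1 (points, filled where the adjusted p was under 0.05), with 95% confidence intervals from limma. Upper panel: the number of all 13801 genes tested per 0.1 of the same scale. The genes run from ANKRD37 at -1.53 to HIF1A at 0.73, and 29 lie below 0 with a filled point.

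Transcripts of both glucose transporters were highest in replicate 1 and lowest in replicate 3. SLC2A1 encodes the widely expressed glucose transporter GLUT1 and SLC2A3 the high-affinity transporter GLUT3. SLC2A3 (chr12:8071826-8171603 of GRCh37) was at 54.5, 55.9 and 42.5 FPKM in the EV, Short and Long libraries of replicate 1, at 37.4, 34.5 and 28.3 FPKM in replicate 2 and at 23.3, 23.9 and 21.0 FPKM in replicate 3. The 3 passages did not overlap, and the log2 fold change was -0.60 (SE 0.07, adjusted p = 0.00608) in replicate 2 and -1.12 (SE 0.07, adjusted p = 3.4e-05) in replicate 3, both against replicate 1. SLC2A1 was at 49.1, 59.6 and 45.7 FPKM in replicate 1, at 34.5, 38.5 and 33.3 FPKM in replicate 2 and at 28.6, 31.2 and 29.9 FPKM in replicate 3, again without overlap. Its changes were -0.52 (SE 0.07, adjusted p = 0.0146) and -0.76 (SE 0.07, adjusted p = 0.000136).

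All 14 enzymes of the chain from hexokinase to pyruvate kinase were lower in replicate 3 than in replicate 1, with a median log2 fold change of -0.37 and a range from -0.79 to -0.16. With each library corrected for GC content 10 of the 14 passed, and GPI, PGAM1, PFKM and ENO1 did not (adjusted p = 0.0722, 0.0816, 0.462 and 0.499, the highest over the alternatives of each). The lowest of these values belonged to HK2, ALDOC and ENO2, the less abundant forms of their families. HK2, the inducible hexokinase that traps glucose as its phosphate, was at 28.4, 31.0 and 26.8 FPKM (EV, Short, Long) in replicate 1, at 19.98, 20.7 and 16.7 FPKM in replicate 2 and at 16.3, 16.1 and 16.2 FPKM in replicate 3. Every library of replicate 1 lay above all others, and HK2 changed by -0.57 in replicate 2 (SE 0.07, adjusted p = 0.0146) and by -0.79 in replicate 3 (SE 0.07, adjusted p = 0.00015). HK1, the constitutive hexokinase, was at 63.6, 72.7 and 69.5 FPKM in replicate 1, at 55.2, 61.3 and 63.0 FPKM in replicate 2 and at 49.4, 52.4 and 55.4 FPKM in replicate 3. Replicates 1 and 3 did not overlap, and the change between them was -0.38 (SE 0.05, adjusted p = 0.000583).

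GPI, which interconverts glucose and fructose phosphates, changed by -0.25 in replicate 3 against replicate 1 (SE 0.05, adjusted p = 0.00383), with means of 153 ± 12.3 and 129 ± 9.02 FPKM (SD, n = 3 libraries each). The committed step that follows belongs to phosphofructokinase, with a liver type PFKL, a muscle type PFKM and a platelet type PFKP. PFKP was at 70.3, 78.9 and 64.7 FPKM in replicate 1, at 60.0, 63.4 and 60.1 FPKM in replicate 2 and at 49.5, 52.8 and 51.1 FPKM in replicate 3. PFKL was at 52.4, 54.2 and 46.4 FPKM, at 45.9, 50.6 and 48.7 FPKM and at 38.3, 43.7 and 43.1 FPKM in the same order. PFKM was at 32.6, 35.8 and 32.6 FPKM, at 31.8, 33.7 and 32.9 FPKM and at 29.1, 28.7 and 30.9 FPKM. For each of the 3 types all libraries of replicate 3 lay below those of replicate 1, with changes of -0.47, -0.28 and -0.18 (SE 0.06 to 0.07, adjusted p = 0.00043, 0.00867 and 0.0391).

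The aldolases split fructose bisphosphate. ALDOA, the major form here, was at 729, 799 and 631 FPKM in replicate 1, at 543, 632 and 583 FPKM in replicate 2 and at 451, 498 and 497 FPKM in replicate 3. ALDOC was at 11.5, 12.1 and 9.19 FPKM, at 9.43, 8.995 and 7.90 FPKM and at 5.24, 6.20 and 6.12 FPKM. In replicate 3 against replicate 1 the changes were -0.57 for ALDOA (SE 0.06, adjusted p = 0.000312) and -0.79 for ALDOC (SE 0.10, adjusted p = 0.000438), and neither gene had overlapping libraries in this comparison. TPI1, which follows them in the chain, was at 754, 856 and 736 FPKM, at 699.8, 801 and 737 FPKM and at 620.2, 645 and 671 FPKM. Its change was smaller, at -0.27 (SE 0.05, adjusted p = 0.00245).

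PGK1 (chrX:77166236-77384792 of GRCh37) makes the first ATP of the pathway. It was at 1075, 1070.0 and 835 FPKM (EV, Short, Long) in replicate 1, at 955, 956 and 812 FPKM in replicate 2 and at 643, 581 and 559 FPKM in replicate 3. Replicate 3 stood below the other passages in every group, while replicates 1 and 2 overlapped, and the change in replicate 3 was -0.73 against replicate 1 (SE 0.05, adjusted p = 5.6e-05) and -0.61 against replicate 2 (SE 0.05, adjusted p = 0.000382). PGAM1, the mutase that moves the phosphate group, was at 125 ± 14.1 FPKM in replicate 1 and at 102 ± 0.52 FPKM in replicate 3 (SD, n = 3 libraries each), a change of -0.29 (SE 0.07, adjusted p = 0.0108). The enolases, which make phosphoenolpyruvate, differed in size. ENO1 was at 1253, 1372 and 1217 FPKM, at 1182, 1343 and 1273 FPKM and at 1096, 1155 and 1175 FPKM in the 3 replicates, a change of -0.16 in replicate 3 against replicate 1 (SE 0.04, adjusted p = 0.0154). ENO2, the neuronal form and a HIF target, was at 42.3, 43.0 and 35.4 FPKM, at 34.5, 37.5 and 31.6 FPKM and at 22.4, 24.5 and 23.2 FPKM, a change of -0.76 (SE 0.07, adjusted p = 0.000142). ENO2 had no overlap between replicate 3 and either other passage. PKM, the pyruvate kinase that ends the chain, was at 631 ± 43.7 FPKM in replicate 1 and 495 ± 30.4 FPKM in replicate 3 (SD, n = 3 libraries each), a change of -0.35 (SE 0.05, adjusted p = 0.000675).

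PFKFB3 and PFKFB4 set the level of fructose 2,6-bisphosphate, the activator of phosphofructokinase, and both are HIF targets. PFKFB3 was at 25.1, 27.0 and 24.3 FPKM in replicate 1, at 17.0, 20.3 and 16.2 FPKM in replicate 2 and at 15.3, 15.3 and 15.5 FPKM in replicate 3. Its libraries of replicate 1 stood above all others, with changes of -0.50 in replicate 2 (SE 0.07, adjusted p = 0.025) and -0.69 in replicate 3 (SE 0.07, adjusted p = 0.000238). PFKFB4 was at 7.69, 8.28 and 7.88 FPKM, at 8.07, 9.21 and 6.21 FPKM and at 6.58, 4.88 and 6.82 FPKM. Its difference of -0.35 between replicates 3 and 1 did not pass the test (SE 0.14, adjusted p = 0.0778).

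The fate of pyruvate is set by lactate dehydrogenase and by PDK1, a kinase that switches off pyruvate dehydrogenase. LDHA was at 1629, 1695 and 1456 FPKM in replicate 1, at 1403, 1392 and 1294 FPKM in replicate 2 and at 1109, 1032 and 976 FPKM in replicate 3, with no overlap between passages. The change in replicate 3 was -0.62 against replicate 1 (SE 0.04, adjusted p = 3.4e-05) and -0.39 against replicate 2 (SE 0.04, adjusted p = 0.000417). LDHB, the form that favours pyruvate and is not a classical HIF target, was at 667, 824 and 732 FPKM, at 710.3, 624 and 659 FPKM and at 745, 731 and 737 FPKM. Its passages overlapped, and its log2 fold change in replicate 3 against replicate 1 was 0.00 (SE 0.07, adjusted p = 0.996). PDK1 averaged 21.8 ± 2.16 FPKM in replicate 1 and 16.6 ± 2.18 FPKM in replicate 3 (SD, n = 3 libraries each), a change of -0.37 (SE 0.10, adjusted p = 0.0172).

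**Figure D3:**
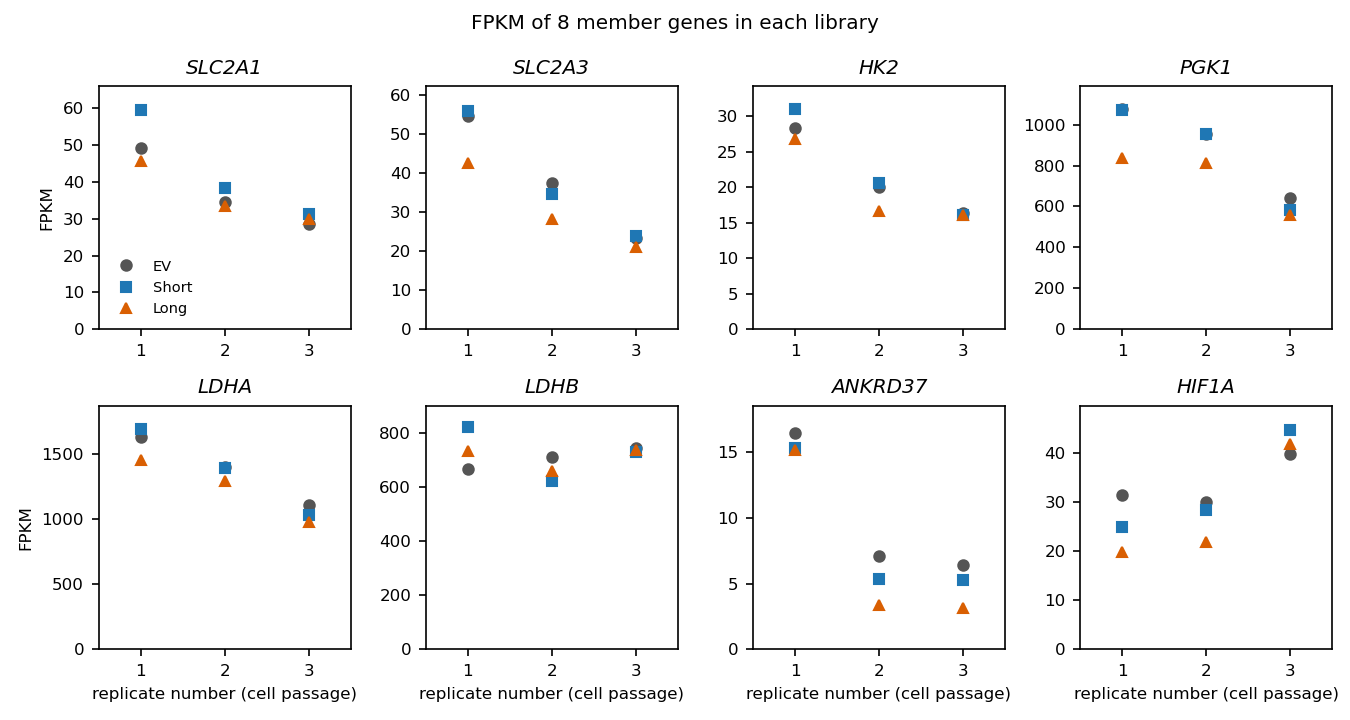
FPKM of 8 genes in each of the 9 libraries, by replicate number (cell passage) on the x axis and by plasmid (symbols), with y axes that start at 0. SLC2A1, SLC2A3, HK2, PGK1, LDHA and ANKRD37 are lower in replicate 3 than in replicate 1, LDHB is at 624 to 824 FPKM throughout, and HIF1A is highest in replicate 3.

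Of the 8 tested HIF targets outside glycolysis, 7 were lower in replicate 3 than in replicate 1. ANKRD37 (chr4:186317175-186321782 of GRCh37), an ankyrin repeat protein known as a strongly hypoxia-induced transcript, was at 16.5, 15.3 and 15.1 FPKM (EV, Short, Long) in replicate 1, at 7.13, 5.34 and 3.39 FPKM in replicate 2 and at 6.41, 5.27 and 3.10 FPKM in replicate 3. Replicate 1 stood far above the other passages, which overlapped each other, and the changes were -1.45 in replicate 2 (SE 0.14, adjusted p = 0.00235) and -1.53 in replicate 3 (SE 0.14, adjusted p = 0.000142). In replicate 3 against replicate 1 it had rank 3 from the lowest of all genes tested, and SLC2A3 had rank 13. NDRG1, a stress-responsive protein, was at 112, 115 and 94.9 FPKM, at 92.4, 93.2 and 78.1 FPKM and at 57.3, 60.4 and 67.8 FPKM in the 3 replicates, a change of -0.78 in replicate 3 (SE 0.09, adjusted p = 0.000317). Its libraries of replicate 3 lay below all others.

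VEGFA, the growth factor of blood vessels, averaged 60.8 ± 2.24, 52.1 ± 1.36 and 40.4 ± 1.54 FPKM in the 3 replicates (SD, n = 3 libraries each), and passage took 97.4% of its variance. The change in replicate 3 against replicate 1 was -0.58 (SE 0.06, adjusted p = 0.00018). ADM, the vasodilator adrenomedullin, was at 16.5, 17.0 and 17.6 FPKM in replicate 1, at 12.6, 12.6 and 10.6 FPKM in replicate 2 and at 13.9, 14.5 and 12.01 FPKM in replicate 3. Replicate 2 was its lowest passage on average and overlapped replicate 3, with changes against replicate 1 of -0.48 (SE 0.08, adjusted p = 0.0459) and -0.32 (SE 0.08, adjusted p = 0.0109).

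P4HA1 and P4HA2, the α subunits of the enzyme that hydroxylates collagen, were at 29.5, 31.3 and 25.3 FPKM and at 23.7, 24.0 and 20.8 FPKM in replicate 1. In replicate 2 they were at 30.0, 23.2 and 20.3 FPKM and at 21.6, 21.0 and 20.4 FPKM. In replicate 3 they were at 23.4, 19.3 and 18.6 FPKM and at 15.3, 14.7 and 14.4 FPKM. P4HA2 in replicate 3 lay below all other libraries, P4HA1 overlapped replicate 2, and the changes in replicate 3 against replicate 1 were -0.47 for P4HA1 (SE 0.09, adjusted p = 0.00221) and -0.59 for P4HA2 (SE 0.06, adjusted p = 0.000267).

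BNIP3 and BNIP3L are related mitochondrial proteins that mark mitochondria for autophagy. BNIP3 was at 58.9, 60.6 and 50.5 FPKM in replicate 1, at 53.8, 53.9 and 44.9 FPKM in replicate 2 and at 43.6, 38.4 and 35.7 FPKM in replicate 3. All its libraries of replicate 3 lay below the others, with a change of -0.52 against replicate 1 (SE 0.06, adjusted p = 0.000292). BNIP3L was at 48.6, 47.6 and 35.6 FPKM, at 45.3, 38.5 and 31.2 FPKM and at 44.01, 39.4 and 37.3 FPKM. Its passages overlapped, and its difference of -0.11 did not pass the test (SE 0.07, adjusted p = 0.244). With each library corrected for GC content BNIP3L was at -0.43 against replicate 1 (adjusted p = 0.00132), and against replicate 2 at -0.26 (adjusted p = 0.0159) in place of 0.08 (adjusted p = 0.42).

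The oxygen-sensing genes themselves did not move together. HIF1A (chr14:62162231-62214977 of GRCh37), which encodes HIF-1α, was at 31.4, 24.8 and 19.8 FPKM (EV, Short, Long) in replicate 1, at 30.0, 28.5 and 21.9 FPKM in replicate 2 and at 39.7, 44.7 and 41.8 FPKM in replicate 3. Every library of replicate 3 lay above all others (17.5% of all genes lay so against replicate 1), and HIF1A rose by 0.73 against replicate 1 (SE 0.11, adjusted p = 0.000938) and by 0.64 against replicate 2 (SE 0.11, adjusted p = 0.00212). EPAS1, which encodes HIF-2α, was at 21.4, 22.6 and 25.4 FPKM, at 18.0, 22.3 and 22.6 FPKM and at 17.5, 22.4 and 19.9 FPKM. Its replicates 1 and 3 overlapped, and its change of -0.21 was close to the threshold (SE 0.07, adjusted p = 0.0471).

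EGLN1 encodes PHD2, the main hydroxylase of HIF-1α, and EGLN3 encodes PHD3, itself a HIF target. EGLN3 was at 17.8, 21.6 and 19.5 FPKM in replicate 1, at 14.0, 15.6 and 12.4 FPKM in replicate 2 and at 10.8, 11.8 and 9.34 FPKM in replicate 3. The 3 passages did not overlap, with changes of -0.46 (SE 0.08, adjusted p = 0.0459) and -0.83 (SE 0.08, adjusted p = 0.000164) against replicate 1. EGLN1 was at 49.7, 52.7 and 53.0 FPKM, at 48.0, 46.0 and 42.8 FPKM and at 40.4, 48.1 and 44.1 FPKM, a change of -0.23 in replicate 3 (SE 0.07, adjusted p = 0.0264).

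GC content also differed between genes that moved with passage. The longest transcripts of the 2047 genes that were higher in replicate 3 than in replicate 1 had a median GC content of 39.3%, those of the 2979 lower genes 52.5%, and those of all genes tested 47.8%. HIF1A, at 36.4%, was on the side of the higher genes, while LDHA (41.8%), ANKRD37 (42.1%), PGK1 (42.8%) and SLC2A3 (45.8%) were lower genes although their GC content was under that median. With each library corrected for GC content, 23 of the 33 genes were lower in replicate 3 and HIF1A was higher by 0.38 (adjusted p = 0.0156, with 0.000168 to 0.0174 over all alternatives). Against replicate 2 HIF1A was then at 0.26 and did not pass (adjusted p = 0.0741, with 0.000293 to 0.0741 over all alternatives). In that fit 2415 of all genes were lower and 1818 higher.

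In replicate 3 against replicate 1, 21.6% of all genes tested were lower and 14.8% higher, with a median log2 fold change of -0.05. Of 25 other tested genes of glycolysis and pyruvate metabolism, 9 were lower and 2 higher in this comparison, with a median of -0.08. The lower ones included the lactate exporter SLC16A3 at -0.54, the pyruvate dehydrogenase kinase PDK3 at -0.40, the pentose phosphate enzyme TKT at -0.26 and GAPDH at -0.25, which completes the glycolytic chain. The higher ones were TIGAR, a phosphatase that lowers fructose 2,6-bisphosphate, at 0.44 and the mitochondrial phosphatase PGAM5 at 0.25. Of 38 other tested genes of the HIF pathway, 18 were lower and 2 higher, with a median of -0.18.

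HILPDA, a lipid droplet protein induced by hypoxia, was at 34.7, 33.5 and 32.5 FPKM (EV, Short, Long) in replicate 1, at 16.9, 16.6 and 12.2 FPKM in replicate 2 and at 13.7, 11.98 and 11.7 FPKM in replicate 3. BHLHE40, a transcriptional repressor, was at 47.3, 48.9 and 45.4 FPKM, at 27.4, 24.3 and 19.2 FPKM and at 22.2, 20.8 and 16.3 FPKM. DDIT4, an inhibitor of mTORC1, was at 96.2, 98.2 and 108 FPKM, at 69.3, 56.8 and 46.7 FPKM and at 54.2, 47.1 and 29.7 FPKM. As for ANKRD37, replicate 1 stood above both other passages for these 3 HIF targets, and the changes in replicate 3 against replicate 1 were -1.36 for HILPDA (SE 0.09, adjusted p = 3.4e-05), -1.22 for BHLHE40 (SE 0.08, adjusted p = 3.4e-05) and -1.23 for DDIT4 (SE 0.15, adjusted p = 0.000379). In replicate 2 against replicate 1, the 4 other HIF pathway genes that fell were HILPDA (-1.10), BHLHE40 (-0.98), CITED2 (-0.43), which competes with HIF for its coactivators, and MXI1 (-0.37), an antagonist of MYC. The 2 that rose in replicate 3 were CUL2, a subunit of the von Hippel-Lindau ligase, at 0.56 and the nuclear receptor RORA at 0.54. VHL and ARNT fell by 0.20 and 0.21 on the log2 scale in that comparison.

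Between the groups, Long against EV gave 7 lower genes of the 33 and none higher, where 6.33% of all genes were lower and 1.99% higher (8.32% in both directions). The members lower in Long were the transporter SLC2A3, the enzymes PGK1 and LDHA, and 4 HIF targets outside glycolysis, BNIP3, BNIP3L, P4HA1 and ANKRD37. The median log2 fold change of the 33 was -0.04, and that of all genes 0.04. ANKRD37 changed by -0.62 (SE 0.14, adjusted p = 0.0223), with 16.5 against 15.1 FPKM in replicate 1, 7.13 against 3.39 FPKM in replicate 2 and 6.41 against 3.10 FPKM in replicate 3 (EV against Long). Long was thus lower in each passage, but the difference between passages was larger, and the pooled libraries of the groups overlapped.

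BNIP3L was the only one of the 33 whose Long libraries all lay below its EV libraries, with 44.01 to 48.6 FPKM in the EV libraries and 31.2 to 37.3 FPKM in the Long libraries, and the change was -0.40 (SE 0.07, adjusted p = 0.0121). Such a gap in the lower direction was found for 3.14% of all genes. P4HA1 changed by -0.36 (SE 0.09, adjusted p = 0.03), from 29.5, 30.0 and 23.4 FPKM in EV replicates 1, 2 and 3 to 25.3, 20.3 and 18.6 FPKM in Long. SLC2A3 changed by -0.29 (SE 0.07, adjusted p = 0.0239), PGK1 by -0.27 (SE 0.05, adjusted p = 0.0154), BNIP3 by -0.25 (SE 0.06, adjusted p = 0.0262) and LDHA by -0.15 (SE 0.04, adjusted p = 0.0433), each with Long below EV in the 3 passages. HIF1A was at -0.34 (SE 0.11, adjusted p = 0.0926) and EPAS1 at 0.24 (SE 0.07, adjusted p = 0.071), and neither passed the test. With each library corrected for GC content, HIF1A was at -0.06 and EPAS1 at 0.16 (limma, adjusted p = 0.808 and 0.259). Of the other tested genes, 1 of 25 of glycolysis and pyruvate metabolism was lower in Long, the monocarboxylate transporter SLC16A7 at -0.66 (SE 0.14, adjusted p = 0.019). Of 38 of the HIF pathway, 5 were lower, and the glycogen synthase GYS1 was higher at 0.25 (SE 0.06, adjusted p = 0.0251). Among the lower were the collagen lysyl hydroxylase PLOD2 at -0.78 (SE 0.10, adjusted p = 0.00884) and RORA at -0.73 (SE 0.14, adjusted p = 0.0142). The GC content was 33.79% for SLC16A7, 35.45% for PLOD2 and 35.85% for RORA. Genes tested with 32% to 36% GC had a median of -0.31 in Long against EV, and SLC16A7, PLOD2 and RORA lay below it. The part of GC content in their falls was not tested.

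Most of these 7 genes had a low GC content. The median GC content of their longest transcripts was 42.1% (37.4% to 51.4%), against 53.0% for the 26 members that did not pass and 37.7% for all 873 genes that were lower in Long. Of the 11 members whose GC content was under the median for all tested genes, 6 were lower in Long, and of all such genes 12.6% were. After each library was corrected for GC content, 2 of the 7 passed, SLC2A3 at -0.34 (adjusted p = 0.0404) and BNIP3 at -0.33 (adjusted p = 0.034), and BNIP3L went to -0.16 (adjusted p = 0.205). The other 4 lost the call, with ANKRD37 at -0.57, P4HA1 at -0.26, PGK1 at -0.24 and LDHA at -0.10 (adjusted p = 0.0501, 0.0832, 0.0669 and 0.279). Of all genes, 176 were lower and 129 higher in Long with this correction, in place of 873 and 275. Over all alternatives the adjusted p ran from 0.0164 to 0.78 for ANKRD37, from 0.0101 to 0.639 for P4HA1, from 0.00571 to 0.791 for PGK1 and from 0.00724 to 0.866 for LDHA. For the other 3 it ran from 0.008 to 0.848 for SLC2A3, from 0.00734 to 0.718 for BNIP3 and from 0.00267 to 0.637 for BNIP3L. The calls rest on several single libraries, for all genes as for the 33. None of the 33 genes passed without EV replicate 2, Long replicate 1 or Long replicate 2, 2 passed without EV replicate 1 and 4 without EV replicate 3. Of all genes, 1148 passed in the main fit. Without EV replicate 2, Long replicate 1 or Long replicate 2, 1, 1 and 10 of all genes passed. Without EV replicate 1 it was 118, and without EV replicate 3 it was 1190. With the same FPKM sum in each library, 57 of all genes were higher and 1223 lower in Long, in place of 275 and 873, and all 7 members passed.

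**Figure D4:**
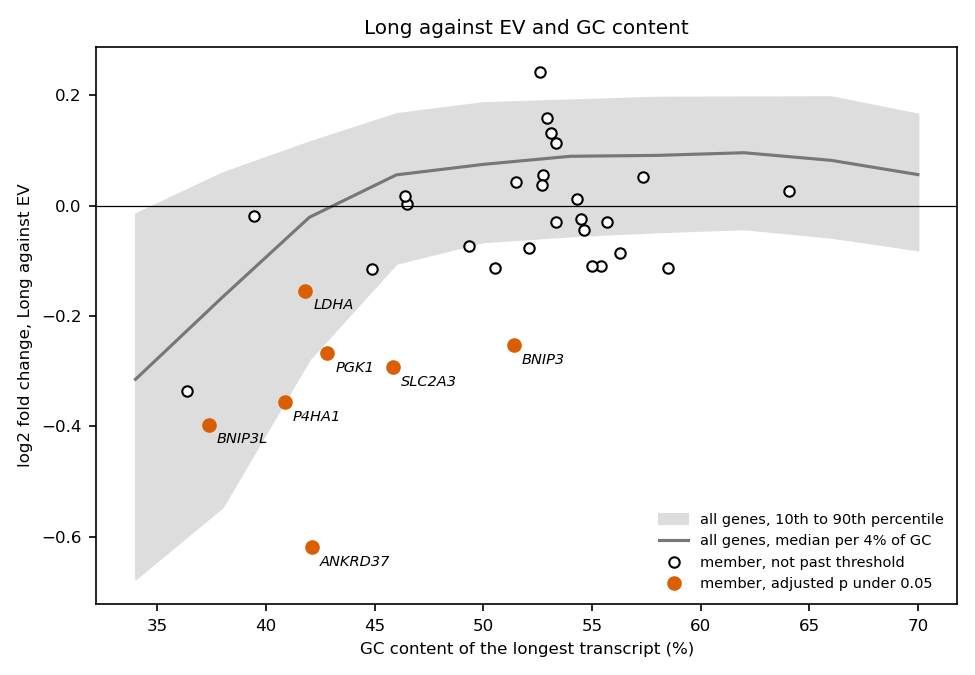
Log2 fold change of Long against EV (y axis) by GC content of the longest transcript (x axis) for the 33 genes (points, filled where the adjusted p was under 0.05), with the median and the 10th to 90th percentile of all genes tested per 4% of GC content. Of the 7 filled points 6 lie below a GC content of 47.8%. Counted by bin of 4% GC, 4 of the 7 filled and 8 of the 26 open points are below the 10th percentile of their bin. The drawn edge of the band joins the bin midpoints, so that points near it can lie on its other side. By the definition of the band, about 10% of all genes lie below it. The filled points were called on the same fold changes.

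In Short against EV none of the 33 genes passed (10 of them and 3041 of all 13801 genes at an unadjusted p under 0.05), where 0.0362% of all genes did in the same limma fit. These 10 were all higher in Short, in each of the 3 passages, and included GPI at 0.20 (SE 0.05, adjusted p = 0.11), PKM at 0.16 (SE 0.05, adjusted p = 0.123), ENO1 at 0.13 (SE 0.04, adjusted p = 0.135) and SLC2A1 at 0.18 (SE 0.07, adjusted p = 0.151). With the same FPKM sum in each library, 7 of the 33 and 2634 of 13809 genes were at an unadjusted limma p under 0.05 in either direction. With the GC correction it was 2 of the 33 and 1785 of 13801. The median of the 33 was 0.06 and that of all genes 0.04, but with the same FPKM sum they were -0.02 and -0.03. In Long against Short none passed either (13 of the 33 and 1040 of all genes at an unadjusted p under 0.05), where 0.00725% of all genes did. The lowest of these were ANKRD37 at -0.39 (SE 0.14, adjusted p = 0.559), SLC2A3 at -0.28 (SE 0.07, adjusted p = 0.547) and BNIP3L at -0.26 (SE 0.07, adjusted p = 0.547), with a median of -0.13 over the 33 and -0.02 over all genes. Both comparisons of Long share its libraries, and both comparisons with EV share those of EV.

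The balance within gene families was followed as the share of a gene in the summed FPKM of its family, which is per length. The shares were not corrected for GC content. ALDOA made up 98.6% ± 0.18 of the aldolase pair and ENO1 97.4% ± 0.48 of the enolase pair (mean ± SD over 9 libraries), so the minor forms that fell most were a small part of each pair. LDHA made up 68.3% ± 2.37 of the lactate dehydrogenase pair in replicate 1, 67.2% ± 1.58 in replicate 2 and 58.4% ± 1.42 in replicate 3 (SD, n = 3 libraries each). Replicate 3 lay apart, at 57.0% to 59.8%. HIF1A made up 51.9% ± 7.88, 56.0% ± 6.62 and 67.9% ± 1.39 of the pair with EPAS1, and EGLN1 72.6% ± 1.44, 76.5% ± 1.58 and 80.6% ± 1.82 of the pair with EGLN3.

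HK1 had 70.5% ± 1.53, 75.8% ± 2.94 and 76.4% ± 1.13 of the hexokinase pair in the 3 replicates, SLC2A1 had 50.3% ± 2.49, 51.6% ± 3.19 and 56.8% ± 1.77 of the transporter pair, and BNIP3 had 56.5% ± 1.96, 57.2% ± 2.53 and 49.3% ± 0.45 of its pair (SD, n = 3 libraries each). The GC content was 51.4% for BNIP3 and 37.4% for BNIP3L. With each library corrected for GC content, they were at -0.40 and -0.43 in replicate 3 against replicate 1. In the phosphofructokinases the mean shares were 43.5% for PFKP, 33.6% for PFKL and 22.9% for PFKM, in that order in each library. PFKFB3 held 72.5% of its pair with PFKFB4 and P4HA1 55.7% of its pair with P4HA2. With 3 libraries on each side an exact two-sided permutation test cannot go below p = 0.1, nor below 0.25 when libraries are paired, and the lowest adjusted p over the 78 comparisons made was 0.339. Of the 39 comparisons between groups none reached p = 0.1 in the exact unpaired test, and 19 reached 0.25 in the exact paired test. That paired value means only that the 3 differences had the same sign, and the 39 comparisons share libraries. One of the 19 was the share of HIF1A, which was lower in Long than in EV in each passage. It was at 43.8% against 59.5%, 49.3% against 62.5% and 67.8% against 69.4% in replicates 1, 2 and 3. The GC content was 36.4% for HIF1A and 52.6% for EPAS1. With each library corrected for GC content, HIF1A was at -0.06 in Long against EV (limma, adjusted p = 0.808).

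Reads of processed pseudogenes can be shared with their parent gene. The table names 53 pseudogenes of 15 of the 34 genes, and their summed FPKM was largest against the parent for SLC2A3 (7.29%), BNIP3 (6.42%), TPI1 (4.79%) and HK2 (4.40%). How many reads were shared was not tested, so the values of these genes are uncertain.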

How the data were processed

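RNA-seq libraries of HEK293 cells transfected with EV, Short or Long were represented by FPKM values of Ensembl genes that the authors deposited in a single table, with a column for each replicate. The submitters' processing notes name TopHat (version 1.4.1) and Cufflinks, and the reads were mapped to hg19. Whether strand was used in counting is not given in the sources used here. FPKM divides fragments by transcript length and library size, so that abundant transcripts lower the values of all others.

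Symbols came from the GENCODE annotation of GRCh37, and GC content from the longest transcript of a gene. Genes whose mean over the libraries reached 1 FPKM (13801) were fitted with limma (version 3.58.1, R version 4.3.3, lmFit and eBayes with a trend) as log2(FPKM + 1), with group and replicate number in 1 model of the 9 libraries. Differences of groups and of replicate numbers were contrasts of this model, with p-values adjusted after Benjamini and Hochberg and called under 0.05. The fit was tested on simulated data. Log2 fold changes understate the change of low genes because of the pseudocount.

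The replicate number pairs the libraries because the methods state that transfections were repeated in different passages. Deviations from group means correlated across genes by 0.327 to 0.813 in the 9 pairs of libraries with the same number, with a mean of 0.552, and by -0.256 on average in the other 18 pairs. Relative depth was read from the most frequent ratio between the lowest FPKM values of a library and EV replicate 1.

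The genes, the pathway lists and the tests were chosen with earlier results of these data known, so that their counts are given beside those of all genes and no test over a list was made. Values by library were printed for at most 10 genes per contrast that passed the threshold, with the largest changes, for the members of gene families, and for the 5 highest and 5 lowest genes, and for the pathway lists the 5 genes with the largest changes per contrast were named. EGLN2, TXNIP, NEFL and PECAM1 of these lists were not analysed here. Alternatives were a pseudocount of 0.1, equal FPKM sums (TPM), median-ratio scaling, no filter, a loess correction for GC content (span 0.3), no group term, no replicate block, and each library or replicate number left out.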

Additional observations from a re-analysis of the deposited data

How the results depend on the processing

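No change of the 33 genes that passed the test in these comparisons turned its direction under any alternative. In Short against EV, where none passed, the median log2 fold change of the 33 went from 0.06 to -0.02 and that of all genes from 0.04 to -0.03 with the same FPKM sum in each library. In replicate 3 against replicate 1 the count of 30 genes of the 33 stayed between 24 and 30, and 399 values of single genes kept their side of the threshold while 51 lost it. The count of all genes, 5026 in the main fit, ran from 3046 to 5128. The genes that lost the threshold most often were EPAS1 and PFKM, which passed in 4 of 15 alternatives, EGLN1 in 6, ENO1 in 7, and PDK1 and PGAM1 in 11. In Long against EV the 7 genes became 0 without a filter on low values, where 27356 genes were tested, 2 with the replicate block and the GC correction, and 0 to 8 when a library or a replicate number was left out (0 without replicate 1 and without replicate 2, 4 without replicate 3). All genes went from 1148 to 1 without the filter and to 305 with the GC correction. Without replicate 1, 2 or 3 they went to 2, 95 and 1032. In replicate 2 against replicate 1 the 7 genes became 0 without the filter, 0 without the group term, and 1 to 7 when a library was left out, with 1 gene left without EV, Short or Long replicate 1 or Long replicate 2, and 4 without EV or Short replicate 2. All genes went from 38 to 0 without the filter and to 2 without the group term. In the fits just named they went to 6, 8, 5 and 6, and to 26 and 15. In replicate 3 against replicate 2 the 20 genes became 13 without the filter, 13 without the group term, and 11 to 23 when a library was left out, with 13 without Short replicate 2 and 11 without Short replicate 3. All genes went from 4449 to 2657, 3069, 2593 and 2600 in these 4 fits. With the GC correction 10 of the 20 kept the threshold. In that fit 13 of the 33 were lower and 1 higher, ADM at 0.32 (limma, adjusted p = 0.0247), and 2944 of all genes passed. More genes entered the adjustment without the filter, and fewer libraries entered the fits with a library left out. The cause of these losses was not tested.

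Without the replicate block, so that passages were not paired, no gene of the 33 passed in Long against EV, Short against EV or Long against Short (0 in each), and 2 of all genes passed in Long against EV. In Short against EV and in Long against Short 0 genes of the 33 passed in the main fit and in every alternative. The shares within gene families moved by less than their SD when a replicate number was left out. No counts are given, so that counting error at low FPKM, as for PFKFB4, ALDOC and ANKRD37, could not be separated from other error.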

Other observations

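Other gene groups also separated the passages, in both directions. Of 8 tested targets of the amino acid response factor ATF4, 6 were lower in replicate 3 than in replicate 1 and 8 lower than in replicate 2, by limma with adjusted p-values as above, where 21.6% and 15% of all genes were lower. ASNS, the asparagine synthetase, was at 156, 151 and 170 FPKM (EV, Short, Long) in replicate 1, at 150.2, 133 and 140 FPKM in replicate 2 and at 95.7, 88.8 and 90.3 FPKM in replicate 3, a change of -0.79 against replicate 1 (SE 0.05, adjusted p = 3.73e-05). CHAC1, which degrades glutathione, was highest in replicate 2, at 11.6, 13.9 and 16.0 FPKM, against 7.85, 7.94 and 8.27 FPKM in replicate 1 and 5.99, 6.85 and 6.16 FPKM in replicate 3. Its passages did not overlap, and it rose by 0.71 in replicate 2 (SE 0.09, adjusted p = 0.0154). ARRDC4, a glucose-responsive arrestin, was lower in replicate 3 by 0.55 on the log2 scale against replicate 1 (SE 0.08, adjusted p = 0.00101), and of 2 tested targets of the density-sensitive factor YAP, AMOTL2 was at -0.31 (SE 0.10, adjusted p = 0.0399).

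Of 8 cell cycle genes, 4 were higher and 1 lower in replicate 3 than in replicate 1, where 14.8% of all genes were higher and 21.6% lower. TOP2A, the topoisomerase of dividing cells, was at 117, 66.7 and 51.4 FPKM (EV, Short, Long) in replicate 1, at 109, 77.1 and 47.2 FPKM in replicate 2 and at 157, 142 and 120.2 FPKM in replicate 3. It rose by 0.90 against replicate 1 (SE 0.14, adjusted p = 0.000922) and was lower in Long than in EV by 0.92 on the log2 scale (SE 0.14, adjusted p = 0.00889). MKI67 and CDK1 were also higher in replicate 3 (0.45 and 0.27) and lower in Long (-0.39 and -0.43), while PLK1 was lower in replicate 3 (-0.21). Of the 8 cell cycle genes, 3 were lower in Long than in EV, where 6.33% of all genes were. The GC content of TOP2A was 38.9% and that of CDK1 36.96%, on the side of the genes higher in replicate 3. It was also on the side of the genes lower in Long, whose median was 37.7%. Their part in the results on the glycolytic genes was not tested.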
